A study of Mus musculus with 12 samples.

Results

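The genes described here are 10 genes of the Gadd45 family and the p53 pathway: Gadd45a, Gadd45b, Gadd45g, Mdm2, Btg2, Ccng1, Trp53inp1, Bbc3, Plk2 and Plk3. They were chosen by name, and each had 1 probe, found through the RefSeq identifier that the array design gives for it, so 10 of the 37246 probes on the array represent them. RNA came from livers of male six-week-old C57BL/6 mice taken 0, 1.5, 12 and 24 h after partial hepatectomy, the surgical removal of 2/3 of the liver, with 3 mice at each time point per the labels. All 4 groups are of the same strain, age and sex, and no genotype or drug distinguishes them. The 0 h group served as the baseline. The design used here has no mice operated on without removal of liver, so the loss of liver mass cannot be told apart from the surgery and anaesthesia themselves. The labels do not say that each array holds a different mouse, and p-values measure only the spread between arrays, which may be technical.

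The Gadd45 proteins are small stress sensors that bind the kinase Map3k4 upstream of p38 and JNK, as well as PCNA and cyclin B/Cdk1, and are known to slow the cell cycle, aid DNA repair or shape survival. Gadd45a is a classical p53 target, Gadd45b is known as a target of NF-kB and of TGF-beta, and Gadd45g as a gene induced by cytokines. The remaining genes are p53 targets or stress-induced genes that act on p53 itself (Mdm2, Ccng1, Trp53inp1), on proliferation (Btg2, Plk2, Plk3) or on apoptosis (Bbc3, which encodes Puma). After partial hepatectomy the normally resting hepatocytes enter the cell cycle within the first day, after an early phase of immediate-early genes.

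The promoters of the 4 genes whose levels the results turn on and which have a RefSeq entry here are shown first, because they carry the DNA from which these transcripts start. Each runs from 250 bases before to 50 bases after the annotated start (RefSeq, GRCm38.p6), written 5' to 3' on the gene's own strand. Capitals mark 3 motifs on either strand. One is TATAAA, at which the transcription machinery can assemble. Another is CCAAT, a common promoter element. The last is TGACG, which begins the element that CREB and ATF proteins recognise. Gadd45a lies at chr6:67037358-67037657 on the minus strand, Gadd45b at chr10:80929841-80930140 on the plus strand, Gadd45g at chr13:51846425-51846724 on the plus strand and Plk3 at chr4:117133914-117134213 on the minus strand.
Gadd45a: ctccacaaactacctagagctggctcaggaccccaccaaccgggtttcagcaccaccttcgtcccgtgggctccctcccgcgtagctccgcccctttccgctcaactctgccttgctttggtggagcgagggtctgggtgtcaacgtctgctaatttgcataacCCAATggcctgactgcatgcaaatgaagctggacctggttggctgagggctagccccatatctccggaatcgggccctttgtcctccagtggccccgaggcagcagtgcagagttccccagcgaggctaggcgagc
Gadd45b: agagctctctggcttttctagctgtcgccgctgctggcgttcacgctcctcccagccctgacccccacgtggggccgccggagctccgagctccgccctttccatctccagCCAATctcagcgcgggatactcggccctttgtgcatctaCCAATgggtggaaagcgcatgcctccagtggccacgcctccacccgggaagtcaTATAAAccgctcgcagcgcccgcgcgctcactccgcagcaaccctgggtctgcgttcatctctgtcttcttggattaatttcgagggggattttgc
Gadd45g: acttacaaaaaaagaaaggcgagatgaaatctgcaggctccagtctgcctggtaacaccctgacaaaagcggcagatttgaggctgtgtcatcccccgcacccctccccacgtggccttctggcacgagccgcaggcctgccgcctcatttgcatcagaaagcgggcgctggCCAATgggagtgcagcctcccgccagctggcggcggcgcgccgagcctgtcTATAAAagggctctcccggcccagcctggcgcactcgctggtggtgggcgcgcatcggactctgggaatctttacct
Plk3: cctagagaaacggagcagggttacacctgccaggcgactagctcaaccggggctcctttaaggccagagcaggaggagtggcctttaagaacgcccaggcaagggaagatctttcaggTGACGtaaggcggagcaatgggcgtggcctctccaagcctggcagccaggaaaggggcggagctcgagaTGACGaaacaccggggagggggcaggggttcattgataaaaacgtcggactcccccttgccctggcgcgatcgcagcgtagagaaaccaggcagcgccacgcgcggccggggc

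The table held promoters for 9 of the 10 genes, in 11 windows, with Trp53inp1 the gene not matched. TATAAA was found in the Gadd45b window, beginning 46 bases before the start, and in the Gadd45g window, beginning 27 bases before it, and in no window of the other 7 genes. Of 32851 promoter windows in the same table, 13.6% held it. CCAAT was found in 7 of the 9 genes, including all 3 Gadd45 genes, against 37.4% of all windows. TGACG was found in 5 of the 9 genes (Btg2, Plk2, Plk3, Mdm2 and Bbc3) and in 20.8% of all windows, and the Plk3 window held it at 2 positions. The full element TGACGTCA, which contains TGACG on both strands, was found in Btg2 and Plk2, and in 1.79% of all windows. A p53 half-site was found in Gadd45a, Mdm2 and Ccng1, and in 8.36% of all windows. GGGCGG was found in 7 genes (35.7% of all windows) and CACGTG in 3 genes (7.15%). Neither TGANTCA, the AP-1 element, nor a CArG box was found in any of the 11 windows, against 7.81% and 1.63% of all windows. All motifs were searched on both strands, and a match describes letters only. Bbc3 had 3 windows and counts as a gene where any of them matched, while the shares of all windows are per window. The 11 windows held 55.7% to 78.0% G and C, against a median of 52.7% over all windows.

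Values are log2 of the background-subtracted signal relative to the 75th percentile of the same array, so 0 is the level of a probe at that percentile. On 11 arrays that percentile lay between 428 and 584 signal units. On the 24 h replicate 2 array it was 6018, and that array was alone in its scan. Over probes it correlated with 24 h replicates 1 and 3 at r = 0.912 and 0.906, against 0.986 between those replicates. Among the arrays at 1.5 h r was 0.972 to 0.989. With the arrays of all time points 24 h replicate 2 correlated at r = 0.859 to 0.917. It enters the spread of every test, so the tests that it moves are also given without it. By the scan times in the file headers, the 3 arrays of 0 h were read with 1.5 h replicate 1, the other two 1.5 h arrays with 12 h replicates 1 and 2, and 12 h replicate 3 with 24 h replicates 1 and 3. No scan held arrays of both 0 h and 12 h, or of both 0 h and 24 h. All 8 measured hepatocyte markers, such as Alb and Ttr, were well above background at each time point. The 7 of them with a value on all 12 arrays had a summed linear signal of 662 on 24 h replicate 2, against 1522 and 1544 on the other two 24 h arrays. In these bulk samples fewer cells of a type and less RNA per cell cannot be told apart.

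Of the 10 genes, 9 had at least 3 arrays well above background and were tested. Bbc3 was not well above background on any of the 12 arrays and has no level here. Btg2, an antiproliferative gene, was well above background on no array at 0 h and on 2 of 3 arrays at each later time point. At 1.5 h and 12 h these were the arrays of 1 scan. On them 81.8% to 85.3% of all probes were well above background, against 62.4% to 72.1% on the other arrays. At 1.5 h replicate 1, at -4.84, was not well above background, while replicate 3, at -4.83, was. The lowest Btg2 signal, -5.63, was on a 12 h array, and the groups overlapped in every comparison. For 12 h against 0 h limma gave an adjusted p of 0.648.

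**Figure D1:**
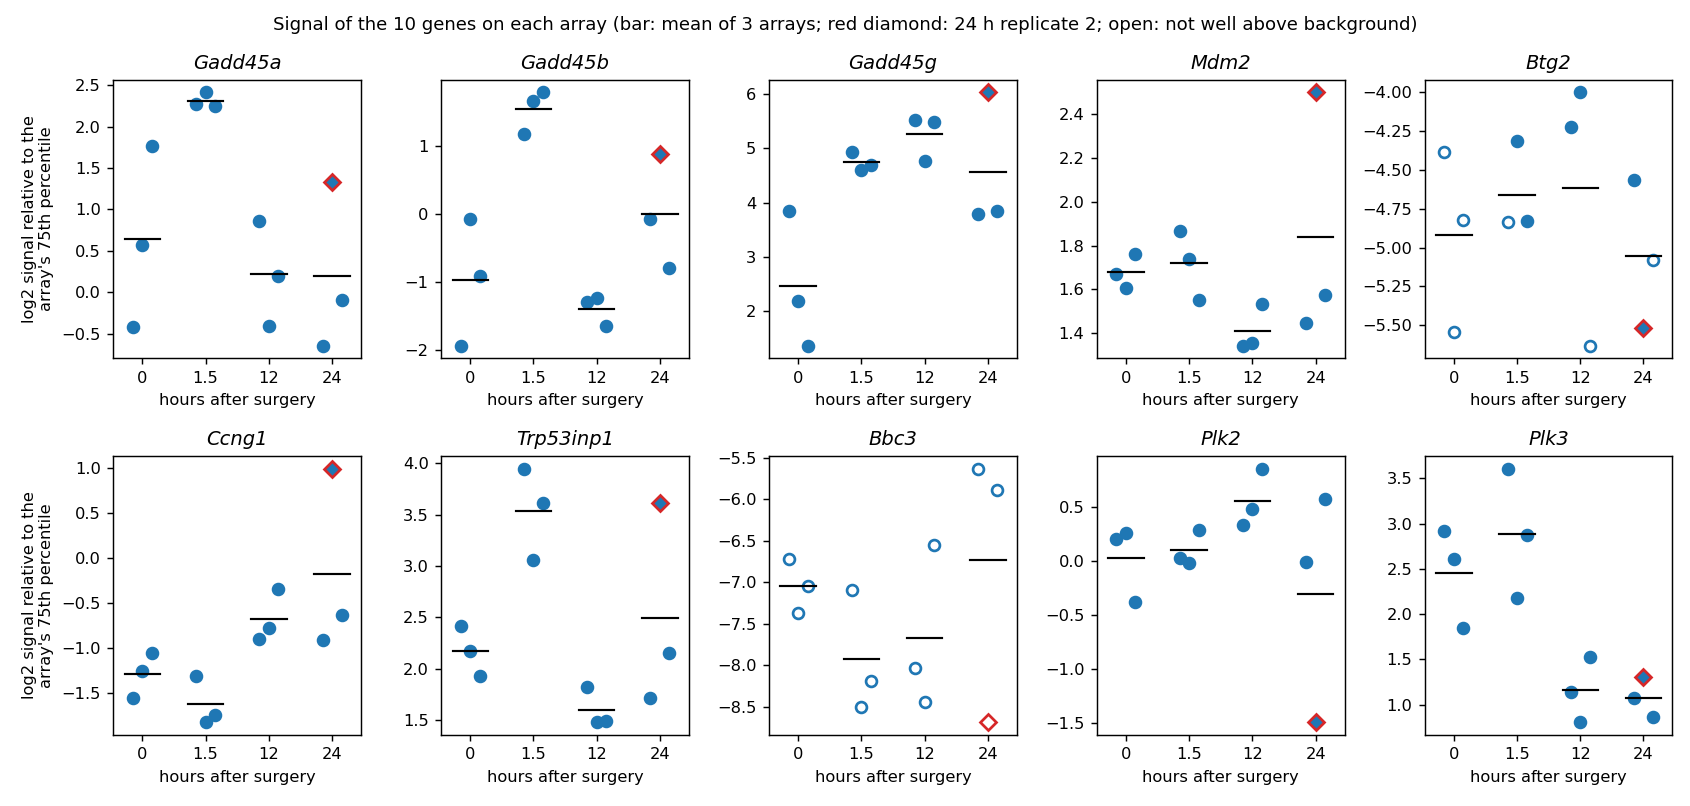
Log2 signal of each of the 10 genes (vertical axis, relative to the array's 75th percentile) on each array at 0, 1.5, 12 and 24 h after surgery (horizontal axis), with a bar at the mean of 3 arrays, a red diamond for 24 h replicate 2 and open symbols for arrays not well above background. Gadd45b stood between 1.17 and 1.79 at 1.5 h and at or below -0.07 at 0 h, and Plk3 was at or below 1.52 on every array at 12 and 24 h.

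Gadd45b was high at 1.5 h and low again at 12 h. Its log2 signal was -1.93, -0.07 and -0.90 at 0 h, then 1.17, 1.66 and 1.79 at 1.5 h, -1.29, -1.23 and -1.64 at 12 h, and -0.07, 0.88 and -0.79 at 24 h. All 1.5 h arrays lay above every array of the other time points, and the 12 h arrays lay within the range of 0 h. The gene fell 7.61-fold at 12 h against 1.5 h (log2 fold change -2.93 ± 0.50 SE, limma adjusted p = 0.0049, and 0.000920 without 24 h replicate 2). This call held under each of the 12 left-out arrays and under every alternative processing that gave a test. The difference between 1.5 h and 0 h was 2.51 ± 0.50, or 5.71-fold, with an adjusted p of 0.218, and of 0.0334 without 24 h replicate 2. In the 1 scan that held both time points, the single 1.5 h array was 2.14 above the mean of the 0 h arrays. In the scan that held both 12 h and 1.5 h arrays, the difference was -2.99.

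Trp53inp1, a p53-induced nuclear protein that promotes cell cycle arrest and apoptosis, followed a like course. Its log2 signal was 2.42, 2.17 and 1.92 at 0 h, 3.95, 3.05 and 3.62 at 1.5 h, 1.82, 1.48 and 1.49 at 12 h, and 1.71, 3.62 and 2.15 at 24 h. The 1.5 h arrays lay above all arrays of 0 h and 12 h, and the 12 h arrays lay below all of 0 h. The highest 24 h value was that of replicate 2. Trp53inp1 fell 3.84-fold at 12 h against 1.5 h (-1.94 ± 0.44, limma adjusted p = 0.0217, and 0.000660 without 24 h replicate 2). Leaving out 1.5 h replicate 1 or 3, or any of the 12 h arrays, gave adjusted p-values of 0.0575 to 0.0949. At 1.5 h against 0 h the difference was 1.37 ± 0.44 with an adjusted p of 0.643, and of 0.0498 without 24 h replicate 2. Within single scans the 2 differences were -1.68 at 12 h against 1.5 h and 1.78 at 1.5 h against 0 h.

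Gadd45g, the cytokine-induced member of the family, was still high at 12 h. Its log2 signal was 3.85, 2.19 and 1.37 at 0 h, 4.94, 4.60 and 4.69 at 1.5 h, 5.53, 4.76 and 5.48 at 12 h, and 3.79, 6.03 and 3.85 at 24 h. The 0 h arrays spread over 2.48 log2 units, yet all arrays of 1.5 h and 12 h lay above them. Gadd45g rose 6.92-fold at 12 h against 0 h (2.79 ± 0.68, limma adjusted p = 0.0195, and 0.00219 without 24 h replicate 2). Leaving out 0 h replicate 2 or 3, or 12 h replicate 1 or 3, gave 0.0609 to 0.0810. With the scan as a block the difference was 2.97 with an adjusted p of 0.153. At 1.5 h against 0 h the difference was 2.28 ± 0.68 (adjusted p = 0.619, and 0.0788 without 24 h replicate 2). For 24 h against 0 h it was 2.09 ± 0.68 (adjusted p = 0.104), or 1.35 without 24 h replicate 2, and the groups overlapped.

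Gadd45a had its highest values at 1.5 h too. Its log2 signal was -0.42, 0.57 and 1.77 at 0 h, 2.28, 2.41 and 2.25 at 1.5 h, 0.86, -0.40 and 0.20 at 12 h, and -0.64, 1.33 and -0.09 at 24 h. The 1.5 h arrays lay within 0.17 of each other and above every other array, while the 0 h arrays spread over 2.19. At 1.5 h against 0 h the difference was 1.67 ± 0.60 (limma adjusted p = 0.680, and 0.121 without 24 h replicate 2). For 12 h against 1.5 h it was -2.09 ± 0.60 with an adjusted p of 0.0573. Leaving out 24 h replicate 2 gave 0.0129, without 0 h replicate 1 it was 0.0484 and without 0 h replicate 3 it was 0.0435.

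The 3 Gadd45 genes thus had their 1.5 h arrays above their 0 h arrays, and at 12 h they parted. The difference between Gadd45g and Gadd45b on the same array was 5.99 to 7.12 at 12 h, against 2.90 to 3.77 at 1.5 h. The change between these time points was 3.44 ± 0.44 (SE) larger for Gadd45g. For Gadd45g and Gadd45a the difference was 4.67 to 5.28 at 12 h, against 2.19 to 2.67 at 1.5 h, and the change differed by 2.61 ± 0.23. Gadd45b and Gadd45a changed between these times by amounts that differed by -0.84 ± 0.44. A two-sided exact permutation test of 3 against 3 arrays gave p = 0.1 for both pairs with Gadd45g, the smallest it can give, and p = 0.2 for Gadd45b against Gadd45a. After adjustment over the 15 tests of 3 pairs in 5 comparisons these were 0.25 and 0.3. For 24 h against 12 h the change of Gadd45g minus that of Gadd45b was -2.10 ± 0.51, with an exact p of 0.1 and 0.25 after adjustment. In the same comparison Gadd45g minus Gadd45a gave -0.68 ± 0.29 (exact p = 0.2, adjusted 0.3), and Gadd45b minus Gadd45a gave 1.41 ± 0.56 (exact p = 0.1, adjusted 0.25).

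**Figure D2:**
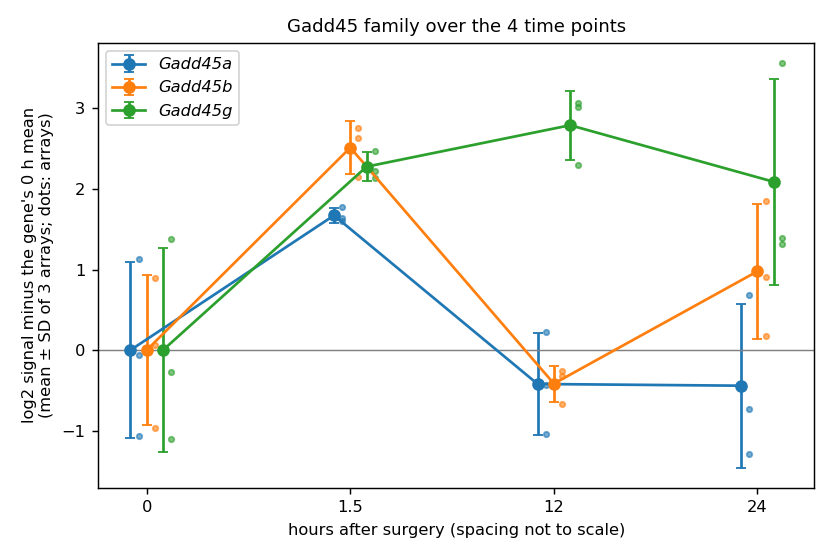
Log2 signal of the 3 Gadd45 genes minus each gene's 0 h mean (vertical axis) at 0, 1.5, 12 and 24 h (horizontal axis, spacing not to scale), as mean ± SD of 3 arrays with a dot per array. The 3 curves lie 1.67 to 2.51 above their 0 h means at 1.5 h, and at 12 h Gadd45g lies 2.79 above its own while Gadd45a and Gadd45b lie at -0.42.

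Plk3, a polo-like kinase of the stress response and known as an immediate-early gene, was low at both later times. Its log2 signal was 2.92, 2.61 and 1.84 at 0 h, 3.60, 2.18 and 2.87 at 1.5 h, 1.14, 0.81 and 1.52 at 12 h, and 1.08, 1.30 and 0.86 at 24 h. The 6 arrays of 12 and 24 h all lay below the 6 arrays of 0 and 1.5 h. Plk3 fell 3.31-fold at 12 h against 1.5 h (-1.73 ± 0.40, limma adjusted p = 0.0228, and 0.00952 without 24 h replicate 2). Leaving out 1.5 h replicate 1 or 3, or 12 h replicate 1 or 2, gave 0.0731 to 0.0936. Within the scan that held both times the difference was -1.55.

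The fall of Plk3 at 12 h against 0 h was 2.46-fold (-1.30 ± 0.40), with an adjusted p of 0.0499 that is next to the threshold of 0.05. Leaving out any of 8 arrays (0 h replicates 1 and 2, 1.5 h replicate 3, every 12 h replicate, 24 h replicates 1 and 3) raised it to 0.0558 to 0.177. With the scan as a block the difference was -0.40 with an adjusted p of 0.741. Its difference between 24 h and 0 h was -1.38 ± 0.40 with an adjusted p of 0.0727. Leaving out 24 h replicate 2 gave -1.49 with an adjusted p of 0.0380. Plk2, the related kinase, had -1.49 to 0.85 on the 12 arrays and passed in no comparison. Its 12 h arrays lay above those of 0 h (0.53 ± 0.45, adjusted p = 0.409, and 0.0922 without 24 h replicate 2).

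Ccng1, which encodes cyclin G1, a p53 target that acts with Mdm2, had log2 signals of -1.55, -1.25 and -1.05 at 0 h, -1.31, -1.82 and -1.74 at 1.5 h, -0.89, -0.78 and -0.34 at 12 h, and -0.91, 0.99 and -0.63 at 24 h. The arrays of 12 h and 24 h all lay above those of 0 h and 1.5 h. No comparison passed with all 12 arrays: the difference was 0.95 ± 0.44 at 12 h against 1.5 h (limma adjusted p = 0.268) and 0.61 ± 0.44 at 12 h against 0 h (adjusted p = 0.334). With 24 h replicate 2 left out, these values had adjusted p-values of 0.0144 and 0.0452. At 24 h it was 2.15-fold above 0 h with that array (adjusted p = 0.179), and 0.52 on the log2 scale without it (0.186). With scan as a block, the 12 h against 1.5 h value was 0.94 with an adjusted p of 0.020. Mdm2, the ubiquitin ligase that degrades p53, had log2 signals of 1.34 to 1.86 on 11 arrays and 2.50 on 24 h replicate 2. Its 12 h arrays, at 1.34 to 1.54, all lay below those of 0 h and 1.5 h. At 12 h against 0 h the difference was -0.27 ± 0.29 (limma adjusted p = 0.507). Its largest difference, 0.43 ± 0.29 at 24 h against 12 h, had an adjusted p of 0.262. With 24 h replicate 2 left out that difference was 0.10 (adjusted p = 0.713), and the largest was -0.31 at 12 h against 1.5 h (0.217).

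**Figure D3:**
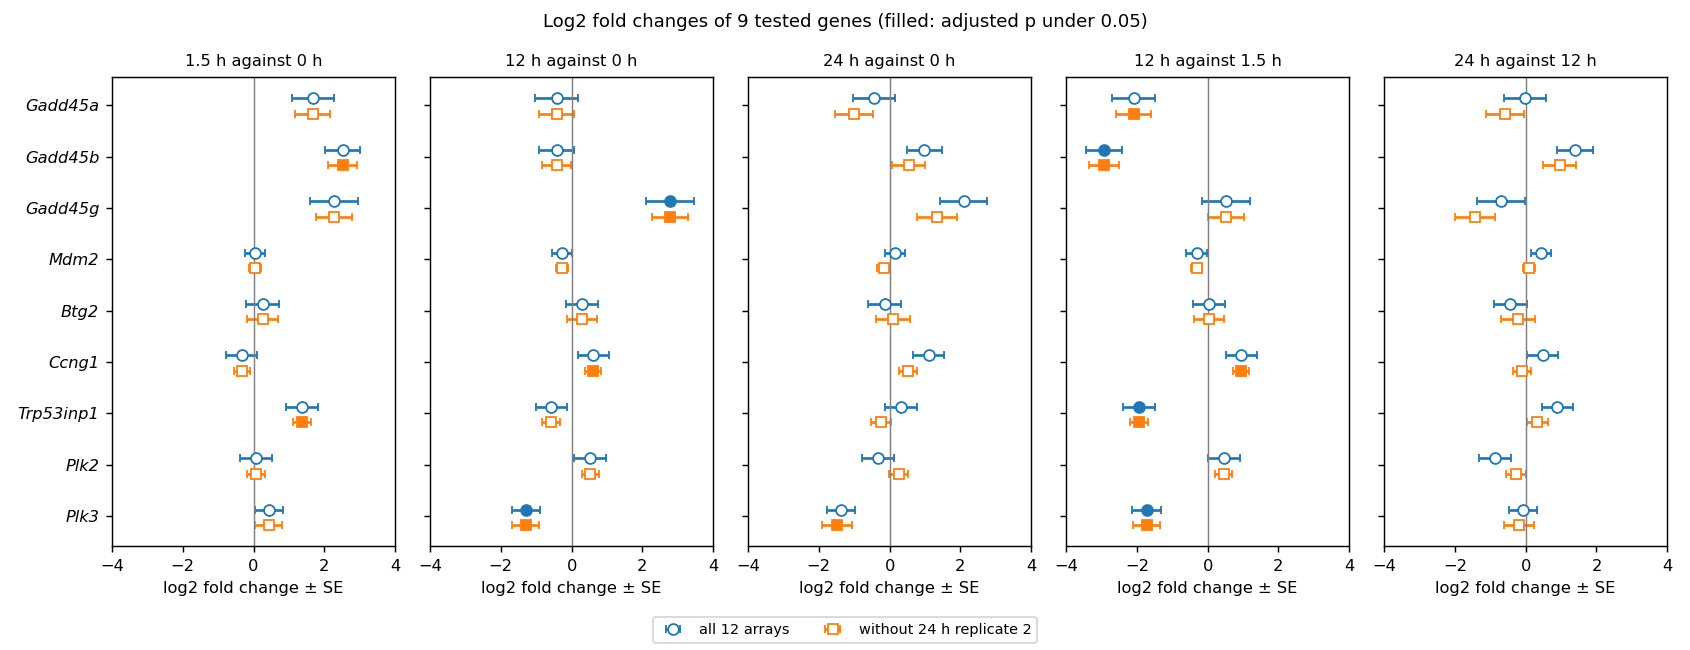
Log2 fold change ± SE of the 9 tested genes (rows) in 5 comparisons of time points (panels), with all 12 arrays (circles) and without 24 h replicate 2 (squares), filled where the adjusted p was under 0.05. Filled circles stand for Gadd45g and Plk3 at 12 h against 0 h and for Gadd45b, Trp53inp1 and Plk3 at 12 h against 1.5 h.

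Read comparison by comparison, none of the 9 tested genes passed at 1.5 h against 0 h, where limma called 0.0225% of all 31172 probes. In that comparison 2001 probes had an unadjusted p under 0.05. With 24 h replicate 2 left out, 2 of the 9 genes rose (Gadd45b and Trp53inp1), against 0.593% of all probes called and 0.507% called higher. The groups did not overlap for 4 of the 9 genes, all higher at 1.5 h (the 3 Gadd45 genes and Trp53inp1), against 25.6% of all probes in either direction and 16.4% higher.

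Between 12 h and 0 h 1 gene rose (Gadd45g) and 1 fell (Plk3), against 15.3% of all probes called, 7.04% higher and 8.26% lower. The groups did not overlap for 6 genes, 3 higher and 3 lower at 12 h, against 61.5% of all probes, 40.7% higher and 20.8% lower. With 24 h replicate 2 left out, 2 genes rose (Ccng1 added) and 1 fell, against 49.2% of probes called, 32.6% higher and 16.6% lower.

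Between 12 h and 1.5 h 3 of the 9 genes fell and none rose, against 8.33% of all probes called and 5% called lower. The groups did not overlap for 7 genes, 2 higher and 5 lower at 12 h, against 36.5% of all probes, 20.2% higher and 16.3% lower. Leaving out 24 h replicate 2 gave 4 lower (Gadd45a added) and 1 higher (Ccng1), against 20.1% of probes called, 10.3% lower and 9.77% higher.

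Between 24 h and 0 h none passed by limma, against 5.46% of probes, where 6547 probes had an unadjusted p under 0.05. Groups did not overlap for Ccng1, higher at 24 h, and Plk3, lower, against 27% of all probes, 13.2% higher and 13.8% lower. Leaving out 24 h replicate 2 let Plk3 pass, against 17% of probes called and 6.67% called lower. Between 24 h and 12 h none passed either, against 13% of probes with all arrays and 15.8% without 24 h replicate 2, and 12600 probes had an unadjusted p under 0.05. There Gadd45b was the only 1 of the 9 whose groups did not overlap (1.39 ± 0.50, adjusted p = 0.0740), against 41.6% of all probes and 14.4% higher. Leaving out 24 h replicate 3 gave Gadd45b 1.79 with an adjusted p of 0.0315, and Plk2 -1.31 with 0.0410. Leaving out 24 h replicate 2 instead gave Gadd45b 0.96 with 0.159 and Plk2 -0.27 with 0.487.

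Asked whether a gene differed from 0 h at one or more times, limma's F test called Gadd45b (adjusted p = 0.0098), Plk3 (0.0184) and Trp53inp1 (0.0477), against 16.2% of all probes. Gadd45g lay at 0.0503 and Gadd45a at 0.0681. With 24 h replicate 2 left out, these 5 genes and Ccng1 passed, against 44.3% of probes. The log2 fold changes of the 9 genes against 0 h had medians of 0.43 for 1.5 h, -0.27 for 12 h and 0.16 for 24 h. The medians of all 31172 probes were 0.17, 0.42 and -0.15, and those of coding probes 0.07, 0.25 and -0.06. For 12 h against 1.5 h the 9 genes had a median of -0.31, against 0.15 for all probes, and for 24 h against 12 h -0.02, against -0.49. Measured from the median of all probes, Plk3 at 12 h against 0 h would be -1.72 and Gadd45g 2.37. The comparisons with 0 h share their 0 h arrays.

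Genes with the most similar course were sought among 3035 named coding genes past the F test, by the root mean square difference of the 3 log2 fold changes against 0 h. For Gadd45b the nearest was Map3k13, at 0.57, followed by Bcl2l11 and Myl7. At 12 h against 0 h, however, Gadd45b had -0.42, against 0.30 for Map3k13 and 0.29 for Myl7. For Trp53inp1 it was Gpr65, at 0.10, followed by Bcl2l11 and Vps37b. For Plk3 it was Selenbp1, at 0.11, followed by Vac14 and Anks1. Bcl2l11, which encodes the apoptosis protein Bim, ranked next to the nearest for both Gadd45b, at 0.65, and Trp53inp1, at 0.39. Its fold changes were 1.91 at 1.5 h, -0.94 at 12 h and 0.18 at 24 h.

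The rest of the p53 pathway was read from 3 lists. The fold changes named below between 0, 1.5 and 12 h do not involve the 24 h arrays, and without 24 h replicate 2 each that had passed did so again, at adjusted p-values of 3.61e-05 to 0.0102. Among 34 other p53 targets, 7 rose and 4 fell at 12 h against 0 h (10 and 9 without 24 h replicate 2). Their median was 0.38, against 0.25 for coding probes and 0.42 for all probes. Of all probes 7.04% were called higher and 8.26% lower (32.6% and 16.6% without 24 h replicate 2). As for the 10 genes, no scan held arrays of both times. Cdkn1a, which encodes the cyclin-dependent kinase inhibitor p21, had 1.51, 0.06 and 0.97 at 12 h, against -1.94, -1.83 and -1.82 at 0 h. All 12 h arrays lay above those of 0 h, and Cdkn1a rose 6.54-fold (2.71 ± 0.47, limma adjusted p = 0.0037). Fas, a death receptor, rose (1.19 ± 0.27, adjusted p = 0.0139), although its dimmer second probe gave 0.73 with 0.164. Sesn2, a stress-response gene, was not well above background at 0 h and was at least 2.16-fold higher at 12 h (adjusted p = 0.0097). Its relative Sesn1 fell (-1.32 ± 0.29, adjusted p = 0.0133).

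At 1.5 h against 0 h none of the 34 p53 targets passed, and Gtse1 came nearest (1.68, adjusted p = 0.109). With 24 h replicate 2 left out, 2 of them did, against 0.593% of all probes. Between 12 h and 1.5 h 2 rose (Fas, 1.26, and Eda2r, 1.54) and 2 fell (Gtse1, -1.91, and Sesn1, -1.35), or 7 and 10 without 24 h replicate 2. Of all probes 8.33% were called there, and 20.1% without that array. The other 2 Eda2r probes gave 0.53 and 0.87 and did not pass, and neither did the dimmer Fas probe, at 0.55. Fas (1.84 ± 0.27, adjusted p = 0.0042) and Ei24 (1.06, adjusted p = 0.0362) rose at 24 h against 0 h, and 5 rose and 1 fell without 24 h replicate 2. The shares of all probes called were 5.46% and, without 24 h replicate 2, 17%. Without it Fas gave 1.81 (0.00281) and Ei24 1.13 (0.0127). Between 24 h and 12 h 3 rose and 2 fell (7 and 4 without that array), against 13% of all probes called (15.8%). Those called with all arrays included Perp (1.22), Casp1 (1.24) and Apaf1 (-1.04). Without 24 h replicate 2 Perp gave 1.06 and Casp1 1.04, and these 3 passed again, Apaf1 at an adjusted p of 0.0213 by limma.

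Of 15 genes for p53 and its regulators, 13 were tested. Of these 2 rose and 4 fell at 12 h against 0 h (3 and 4 without 24 h replicate 2), where 7.04% of all probes were called higher and 8.26% lower (32.6% and 16.6% without that array). The checkpoint kinase Chek2 had -5.03, -4.84 and -4.89 at 12 h, against -2.20, -2.22 and -2.13 at 0 h, with no overlap, and at 12 h it was well above background on 2 of 3 arrays (-2.74 ± 0.28, limma adjusted p = 0.000240). Hipk2, a kinase that phosphorylates p53, fell (-1.78 ± 0.34, adjusted p = 0.0062). Atm, the DNA damage kinase, well above background on 2 of 3 arrays at 12 h, fell too (-3.86 ± 0.81, adjusted p = 0.0100), and its 1.5 h arrays parted by scan: -1.45 on the one read with the 0 h arrays, against -3.99 and -3.78 on those read with 12 h arrays. Trp53 itself, named after its values were seen, had -0.89, -0.95 and -0.38 at 12 h, against -1.98, -1.86 and -1.86 at 0 h (1.16 ± 0.35, adjusted p = 0.0483), and its second probe gave 0.46 with 0.490. Trp63, a relative of p53 that was also named after its values were seen, was the other gene that rose (2.29-fold, adjusted p = 0.0302), and its 7 other probes gave log2 fold changes of 1.37 to 4.36 and passed too.

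Between 12 h and 1.5 h Chek2 (-2.20) and Hipk2 (-1.29) fell, and at 24 h against 12 h both rose (2.25 and 1.38), while Trp63 fell (-1.21, limma adjusted p = 0.0386). Of the 7 other Trp63 probes, at -0.54 to -2.85, 1 passed. Without 24 h replicate 2 Chek2 gave 2.41, Hipk2 1.61 and Trp63 -1.01 (adjusted p = 0.0485), and each passed. Neither at 1.5 h nor at 24 h against 0 h did any of the 13 pass with all 12 arrays, against 0.0225% and 5.46% of all probes. Without 24 h replicate 2, 1 rose and 3 fell at 24 h against 0 h, against 17% of all probes called and 6.67% called lower. With all arrays 8.33% of probes were called at 12 h against 1.5 h and 13% at 24 h against 12 h.

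Among 20 relatives and partners of the 10 genes, 1 rose and 2 fell at 12 h against 0 h (5 and 5 without 24 h replicate 2), beside the same 7.04% and 8.26% of all probes (32.6% and 16.6%). Map3k4, the kinase that Gadd45 proteins bind, had -0.59, 0.03 and -0.20 at 12 h, against 2.07, 1.71 and 1.71 at 0 h. The groups were far apart, and Map3k4 fell 4.24-fold (-2.08 ± 0.32, limma adjusted p = 0.0021). Mapk8, which encodes the kinase JNK1 farther down that pathway, fell (-1.09, adjusted p = 0.0088). Btg3, a relative of Btg2, rose 7.06-fold (2.82 ± 0.50, adjusted p = 0.0044). Bcl2l11 fell 7.22-fold at 12 h against 1.5 h (-2.85, adjusted p = 0.000472), with its other two probes alike at -3.07 and -2.97. Btg3 (2.47) rose, and Map3k4 (-1.59) and Mapk8 (-0.83) fell. Of all probes 8.33% were called at 12 h against 1.5 h.

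At 24 h against 0 h Trp53inp2, a relative of Trp53inp1, rose (1.40, limma adjusted p = 0.0189), Btg3 rose (2.07, 0.0385) and Bcl2 fell (-1.34, 0.0478), with -0.51 at its second probe. Without 24 h replicate 2 these gave 1.33, 1.51 and -0.94 in that order, and each passed. Trp53inp2 (2.03), Bcl2l11 (1.12) and Map3k4 (1.14) rose at 24 h against 12 h. Without 24 h replicate 2 the first 2 passed again (1.96 and 1.01), and Map3k4 gave 0.85 with an adjusted p of 0.0556. At 1.5 h against 0 h none passed, and Bcl2l11 came nearest (1.91, adjusted p = 0.0913, and 0.0186 without 24 h replicate 2). Of all probes 5.46% were called at 24 h against 0 h and 13% at 24 h against 12 h.

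**Figure D4:**
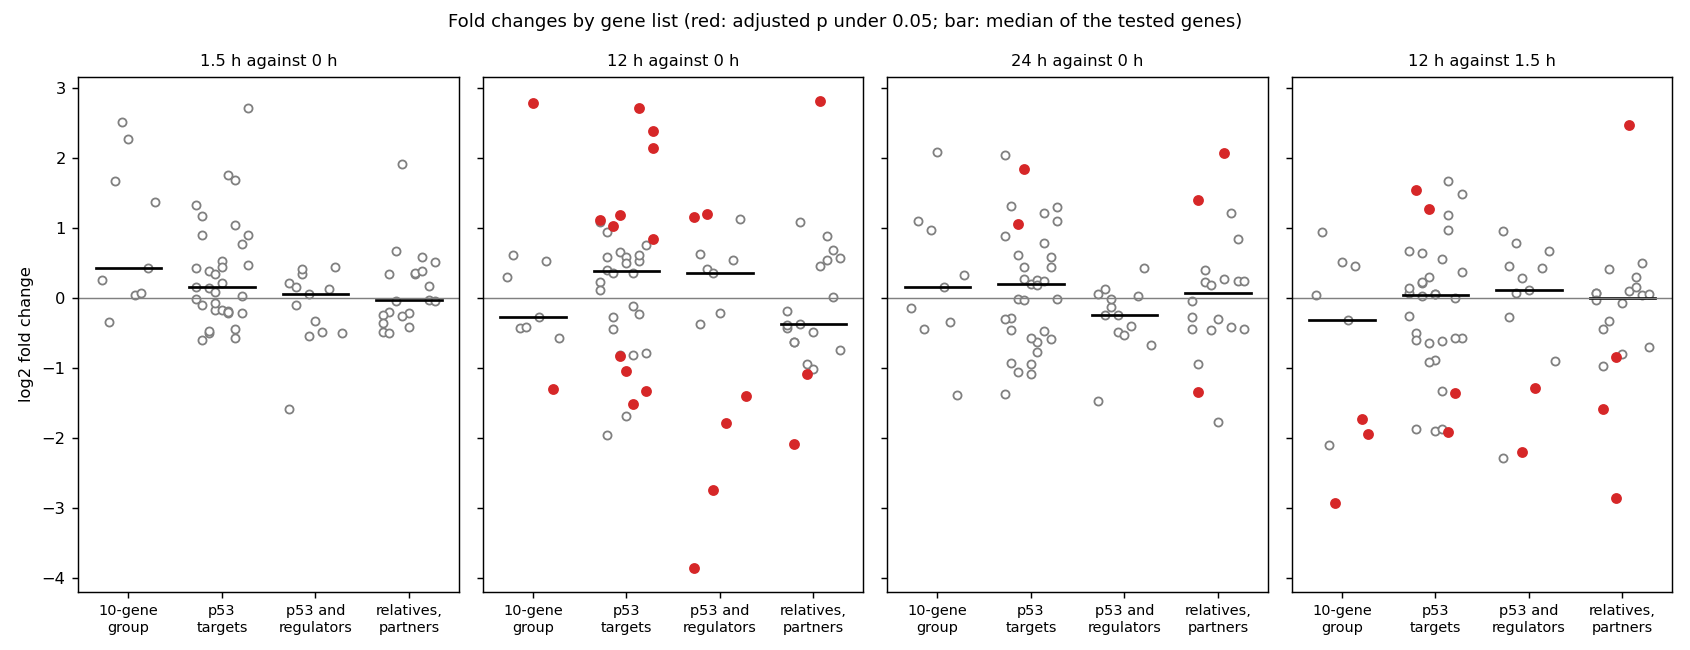
Log2 fold change (vertical axis) of each tested gene in the 10-gene group and in the lists of p53 targets, p53 with its regulators, and relatives with partners (horizontal axis), by comparison (panels), with a bar at the median and red for adjusted p under 0.05. At 12 h against 0 h the medians were -0.27, 0.38, 0.36 and -0.38 in that order.

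Markers of other cells moved over the same hours. The summed linear signal of 9 neutrophil markers, relative to the 75th percentile, was 1.72 to 2.32 at 0 h, 8.35 to 11.6 at 1.5 h, 32.7 to 42.0 at 12 h and 27.8 to 43.7 at 24 h. At 0 h 3 of them (Ngp, Ltf and Mmp8) were not well above background on any array. At 12 h against 0 h 6 of 8 tested rose, against 7.04% of all probes called higher. The sum of 7 macrophage markers was 15.7 to 29.0 at 0 h, 19.4 to 35.3 at 1.5 h, 18.7 to 34.8 at 12 h and 36.4 to 54.7 at 24 h. Marco alone made up 57.3% to 76.0% of that sum at 12 h and 47.4% to 67.6% at 24 h, against 13.7% to 22.0% at 0 h. At 24 h against 0 h 1 of the 7 rose, against 5.46% of all probes called. At 12 h against 0 h 1 of the 7 rose (Marco, 2.44, limma adjusted p = 0.00814) and 2 fell (Vsig4, -1.07, 0.0453, and Csf1r, -1.27, 0.0381). The median of the 7 was -1.07. Of all probes 7.04% were called higher and 8.26% lower. The sum of 5 markers of cycling cells was 8.26 to 12.1 at 0 h, 12.2 to 17.1 at 1.5 h, 19.5 to 23.2 at 12 h and 4.14 to 21.0 at 24 h, the lowest on 24 h replicate 2. Bub1 alone made up 90.0% to 93.5% of that sum at 12 h. None of the 5 passed at 12 h against 0 h with all arrays, and Mki67 gave -0.32 (limma adjusted p = 0.608). Without 24 h replicate 2, 3 of the 5 were called higher, against 32.6% of all probes.

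The sum of the 7 hepatocyte markers was 1908 to 3436 at 12 h, against 1529 to 1628 at 0 h, and of the 8 tested Fgb rose (2.25) and Ttr fell (-1.93). Alb parted by scan at 12 h: 9.37 and 9.05 on the arrays read with 1.5 h arrays, against 7.69 on replicate 3. At 1.5 h Alb was 8.91 and 9.33 on the arrays read with 12 h arrays, against 8.17 on replicate 1. Serpina1c and Apoc3 parted in the same way. The sum of 7 lymphocyte markers was 48.3 to 66.9 at 12 h, against 24.0 to 33.7 at 0 h. Nkg7 made up 90.3% to 95.6% of it at 12 h, and of 6 tested none rose and Ms4a1 fell (-1.89). That of 7 stellate cell markers was 4.68 to 5.38 at 12 h, against 8.28 to 9.98 at 0 h, where Hgf rose (2.53) and Lrat fell (-1.90). The sum of 7 endothelial markers was 30.1 to 35.2 at 12 h, against 34.7 to 36.4 at 0 h, where Lyve1 rose (3.35) and Kdr fell (-2.47). In this comparison 7.04% of all probes were called higher and 8.26% lower. The part of these cells in the levels of Gadd45b, Gadd45g, Trp53inp1 or Plk3 was not tested.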

How the data were processed

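Mouse liver RNA was labelled with Cy3 and hybridised to 12 1-colour Agilent arrays, 3 at each of 0, 1.5, 12 and 24 h, per the labels. Per the submitters' processing notes, the authors read the spots with Agilent Feature Extraction 10.5.1.1, and the deposited files hold a processed intensity for each spot on a linear scale. A second table deposited by the authors holds log2 values whose normalization is not given in the sources used here, and it served as an alternative. Control spots and outlier spots were left out, spots of a probe were averaged, and each array's 75th percentile was subtracted from log2 of the processed intensity. Of 37246 probes, 31172 with at least 3 of 12 arrays well above background were kept. The 12 arrays entered 1 model of limma 3.58.1 (R 4.3.3) that estimates a mean for each time point, with two-sided tests, Benjamini-Hochberg adjustment over all kept probes and a threshold of 0.05. It was tested on simulated data. Errors after a fold change are standard errors.

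A gene with several probes is given by its brightest. All 10 genes were to be named, with at most 4 genes per pathway list and comparison by smallest adjusted p. For a group not well above background on any array, the fold is against the lowest signal called well above background on each array. Alternatives were the authors' values, quantile normalization, normexp (offset 50), 2 other filters, robust moderation, array weights by both of limma's methods, replicate number or scan as a block, only the groups compared, and each array left out. The genes and lists were chosen with earlier results of these data known. The number of arrays limits the precision. The values of 1 gene of the lists are not reported here.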

Additional observations from a re-analysis of the deposited data

How the results depend on the processing

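No alternative or left-out array reversed a difference of the 10 genes that passed with limma as reported. Without 24 h replicate 2 limma's count at 1.5 h against 0 h was 2, against 0 with all arrays, and leaving out each other array gave 0. At 12 h against 0 h, leaving out one array gave counts of 0 to 3 (2 with all), at 24 h against 0 h 0 to 1 (0), at 12 h against 1.5 h 1 to 5 (3), at 24 h against 12 h 0 to 2 (0) and in the F test 1 to 6 (3). Normexp gave 0 genes at 12 h against 0 h, 1 at 12 h against 1.5 h and 0 in the F test, when it called 673 of 31172 probes at 12 h against 0 h, against 4770. Quantile normalization, the filter for all 12 arrays and robust moderation each gave 1 gene at 24 h against 0 h and 5 in the F test. The authors' values gave 1 at 24 h against 0 h, 1 at 24 h against 12 h and 6 in the F test. With no filter on dim probes 1 gene passed at 12 h against 0 h. With scan as a block 0 passed there, and the count of probes was 1294 for 12 h against 0 h and 83, against 1701, for 24 h against 0 h. Array weights gave 4 genes at 1.5 h against 0 h, 6 at 24 h against 0 h, 5 at 12 h against 1.5 h, 3 at 24 h against 12 h and 6 in the F test. Their default estimate stopped before convergence and gave 24 h replicate 1 a weight of 22.2, and with it Trp53inp1 at 24 h against 0 h was -0.46 (adjusted p = 0.035), against 0.32 unweighted. Weights estimated gene by gene, chosen after seeing the data, gave 4, 1, 5, 0 and 6 genes in the same order, and raised the count of probes at 1.5 h against 0 h to 11859, against 7. The cause of these differences was not tested. Against the median of all probes, Plk3 at 12 h against 0 h was -1.72. Where no fit passed the threshold, 49 of 865 fold changes had another sign than as reported. A check on other probes of the 10 genes was not run because each has 1 probe.

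Replicate numbers did not pair the arrays: in 16 of 18 pairs of arrays with the same number, the correlation of their deviations from the group mean was under 0.1 (range -0.42 to 0.41). With the replicate number as a block, 1 gene passed at 12 h against 0 h, against 2 without the block, and 3603 probes, against 4770. With only 3 arrays per time point, and 1 of them standing apart at 24 h, a difference that missed the threshold may still exist.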
